A study of Macaca mulatta with 11 samples.

Results

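The genes described here are 38 genes of the heat shock and unfolded protein responses, chosen by name, and their probe sets were those whose platform gene symbols included one of these names. Of the 38 genes, 37 had a probe set (HSF2 did not), and together they held 74 of the 22215 probe sets on the array. HSPA1A and HSPA1B are near-identical genes that shared the same probe sets, so the measured genes were represented by 36 distinct probe sets. Each was the brightest probe set with 1 gene symbol, or one with several symbols where the gene had no other. For HSP90B1 (8.51 against 11.65 on average) and DNAJB6 (7.24 against 7.89) a probe set with several symbols was brighter than the one used. HSPA8 was read only by probe sets that also carried the names of small nucleolar RNA genes.

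The RNA came from 11 bone marrow-derived mesenchymal stem cell cultures (plastic-adherent stromal cells) of rhesus monkeys (Macaca mulatta), grown to passage 2, with 1 array per culture. The titles gave 4 fetal, 4 infant and 3 adult cultures. Fetal cultures 1 and 2 came from donors at gestation day 120, while fetal cultures 3 and 4 came from newborn donors. The infant donors were aged 6, 6, 3 and 5 months in the order of their numbers, and the adult donors 7, 7 and 8 years. Marrow was flushed from long bones for the fetal and newborn cultures and aspirated for the infant and adult ones, so that donor age and the way marrow was taken cannot be told apart in comparisons with the fetal group. The labels did not say whether cultures of one age came from separate animals, so each p-value reflects the spread between cultures, which may be technical. No genetic change or drug is named in the labels.

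Molecular chaperones bind proteins that are unfolded or newly made and help them to fold. In the cytosol, heat and other stresses free the transcription factor HSF1, which switches on HSP70, HSP40 and small heat shock protein genes. In the endoplasmic reticulum, where stromal cells fold large amounts of collagen and other secreted proteins, unfolded protein activates sensors that work through XBP1, ATF6 and ATF4 and raise chaperones, disulfide isomerases, degradation factors and stress genes such as DDIT3 and TRIB3.

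Values are log2 intensities, and a difference of 1 is a factor of 2. The array was built for human genes, so levels of different probe sets were not compared with each other, except to tell dim from bright ones: 27 of the 36 members read above the 75th percentile of all log2 values, 7.94. Array medians lay between 164.9 and 169.6 in intensity, pairwise correlations between 0.928 and 0.983, and the first principal component held 23.1% of the variance. Infant arrays 1 and 2 and adult arrays 1 and 2 lay on its negative side (-20.5 to -16.1), and all other arrays on its positive side (6.70 to 19.5). Adult array 3 stood apart from the other 10 arrays in XIST (11.23, against 7.27 to 8.40) and in the Y-linked RPS4Y1 (7.81, against 11.30 to 12.16). Markers of stromal cells were present, with 12 of 20 above the 75th percentile. The 16 measured markers of B and plasma cells summed to intensities of 10722 and 13608 in adult arrays 1 and 2, against 3481 in adult array 3 and 2990 to 3433 in the infant and fetal arrays. The leukocyte, erythroid, endothelial, muscle and neural lists showed no such step, and no marker in any list passed the test. The number of arrays limited the precision throughout.

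No heat shock or unfolded protein response gene passed the test in any comparison (a limma p under 0.05 after Benjamini-Hochberg adjustment across the array). In RNA of whole cultures, fewer cells of a type and less RNA per cell cannot be told apart. In the adult minus fetal comparison 0 of the 74 member probe sets were called, where 0.131% of all probe sets were. The same count was 0 in the adult minus infant comparison (0.018% of all), in the infant minus fetal comparison (0% of all) and in the newborn minus gestation day 120 comparison (0% of all). The F test over the 3 age groups called 0 members (0.036% of all), with a lowest adjusted p of 0.0860, for HSPA4. At an unadjusted p under 0.05 in the F test there were 13 of 74 member probe sets, and 1780 of all 22215.

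Below that threshold the members leaned towards lower values in adult than in fetal cultures. Of the 36 member genes, 24 were lower and 12 higher in the adult group, with a median difference of -0.11, while among all 11963 genes with a probe set of their own 50.1% were higher and the median was 0.00. At an unadjusted p under 0.05 (limma), 17 of 74 member probe sets were lower and 1 was higher in adult arrays, where 4.83% and 4.12% of all probe sets were. The adult and fetal ranges did not overlap for 10 member probe sets that were lower and 1 that was higher in adult arrays, against 3.66% and 4.41% of all probe sets. Probe sets of one gene are not independent, and bright probe sets as a whole also leaned this way: among the 5449 probe sets above the 75th percentile, 61.7% were lower in adult arrays and 12.8% were lower at an unadjusted p under 0.05. Of the 45 member probe sets that bright, 37 were lower and 17 were lower at that threshold (37.8%). The count of 17 became 11 after quantile normalization and 12 without adult array 3, both given here without the share of all probe sets under those settings. It became 6 with only the newborn arrays as the fetal group, where 2.59% of all probe sets were lower at that threshold.

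**Figure D1:**
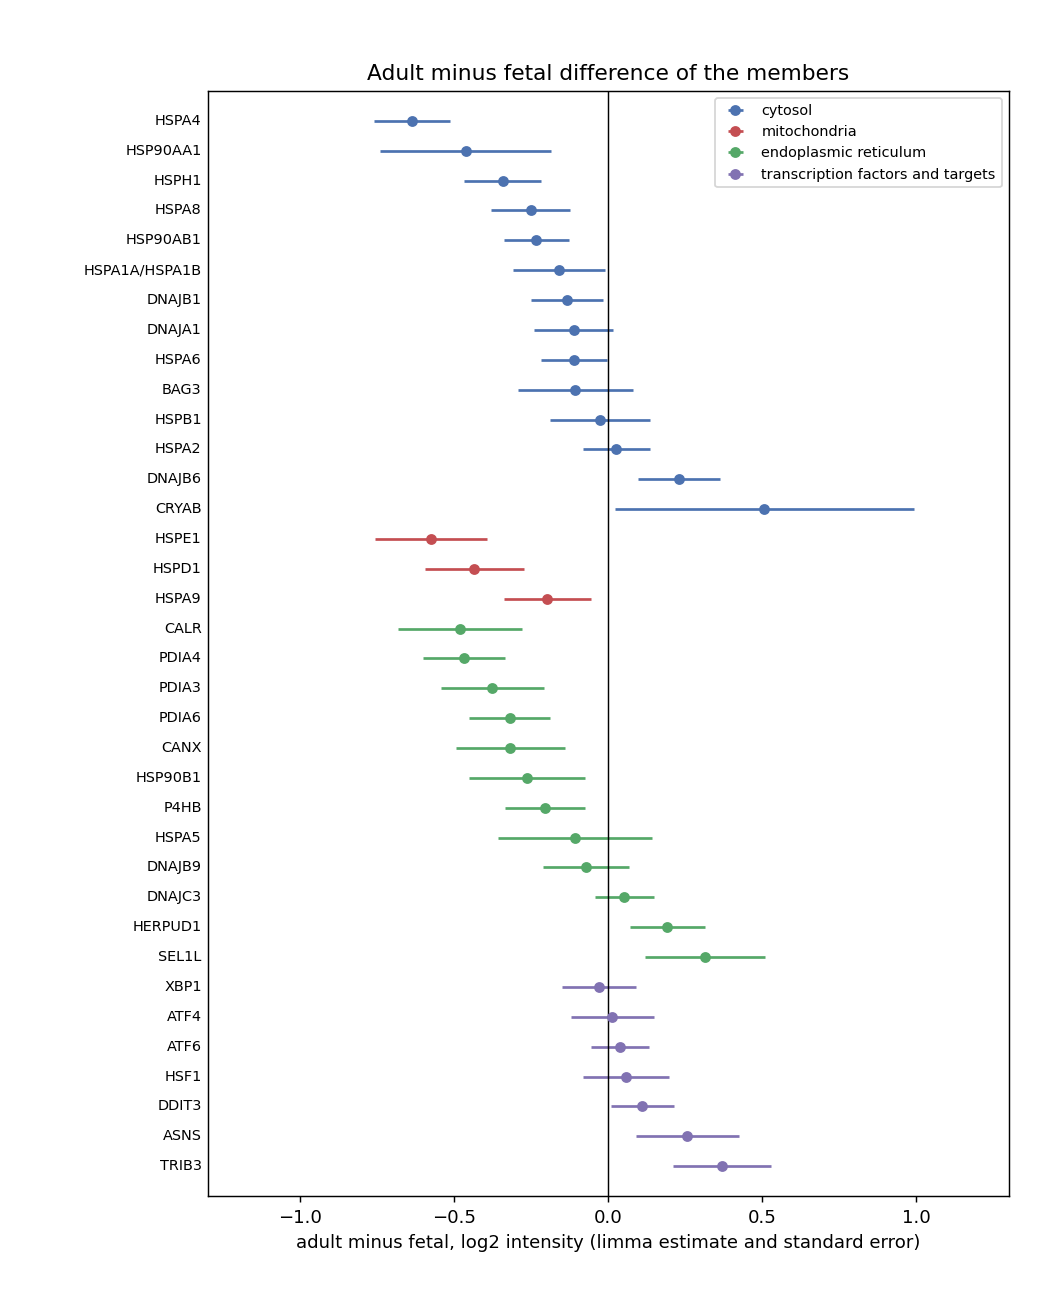
Adult minus fetal difference of log2 intensity for the 36 member probe sets, with points at the limma estimate, bars for 1 standard error, and colours for the compartment. The 3 mitochondrial and most endoplasmic reticulum and cytosolic chaperones lie left of 0, while 6 of the 7 transcription factors and targets lie right of it.

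The lean towards lower adult values differed in extent between the compartments as listed, though the lists were not tested against each other. Of the 14 cytosolic genes 11 were lower in adult cultures (median difference -0.12), as were all 3 mitochondrial chaperones (median -0.43) and 9 of 12 genes of the endoplasmic reticulum (median -0.23). Of the 7 transcription factors and targets only XBP1 was lower, and the median was 0.06.

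In the cytosol the gene nearest the threshold was HSPA4, a cousin of the HSP70 proteins that acts as their nucleotide exchange factor. HSPA4 read 8.40, 8.78, 8.95 and 8.58 in fetal arrays 1 to 4, 8.00, 8.09, 8.13 and 8.21 in infant arrays 1 to 4, and 8.11, 8.03 and 7.99 in adult arrays 1 to 3. Every infant and adult array lay below every fetal array, and the infant and adult ranges overlapped. The adult minus fetal difference of HSPA4 was -0.64 ± 0.12 (SE; limma adjusted p = 0.0646), and the infant minus fetal difference was -0.57 ± 0.11 (SE; limma adjusted p = 0.266). The adult minus fetal difference passed the threshold in 3 of 23 alternatives. These were array weights (limma adjusted p = 0.0335), the fit without fetal array 4 (limma adjusted p = 0.0495) and the replicate block (limma adjusted p = 0.0429). For the mean over all HSPA4 probe sets the adult minus fetal difference was -0.22, the smallest of the alternatives. The other 3 HSPA4 probe sets were dimmer, with adult minus fetal differences of 0.02, -0.22 and -0.05, so the separation rested on 1 probe set of 4.

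HSPH1, the HSP110 exchange factor of the same family, read 8.60, 8.84, 8.46 and 8.30 in fetal, 8.16, 8.12, 8.34 and 8.30 in infant, and 8.15, 8.34 and 8.13 in adult arrays. Fetal arrays 1 to 3 were the highest of the 11, and fetal array 4 fell within the infant range. The adult minus fetal difference was -0.34 (limma adjusted p = 0.407) and the infant minus fetal difference -0.32 (limma adjusted p = 0.638). A second HSPH1 probe set gave an adult minus fetal difference of 0.03.

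The cytosolic HSP90 genes encode the chaperone that matures kinases and steroid receptors. HSP90AA1, the stress-inducible form, read 10.15, 9.76, 10.06 and 9.07 in fetal, 10.17, 10.15, 9.44 and 9.39 in infant, and 9.59, 9.53 and 8.77 in adult arrays. Fetal and infant arrays overlapped widely, and adult array 3 was the lowest of all. For HSP90AA1 the adult minus fetal difference of -0.46 ± 0.28 (SE; limma adjusted p = 0.672) was -0.20 without adult array 3, and the adult minus infant difference was -0.49 (limma adjusted p = 0.830). The further HSP90AA1 probe sets gave adult minus fetal differences of 0.04, -0.30 and -0.20, and adult minus infant differences of 0.11, -0.24 and -0.05. In the one at -0.30, adult arrays 1 and 2 read 9.68 and 9.84, above the fetal mean of 9.66. HSP90AB1, the constitutive form, stood at 11.54, 11.51 and 11.34 in adult arrays, all below the fetal arrays at 11.61 to 11.77, a difference of -0.23 (limma adjusted p = 0.531). Its second, dimmer probe set read 8.73 in adult array 3 and 9.75 to 10.51 in all others.

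Among the HSP70 genes, HSPA8, the constitutive cytosolic HSP70, read 11.55, 11.50 and 10.98 in adult arrays and 11.49 to 11.73 in fetal arrays. Adult arrays 1 and 2 lay inside the fetal range and adult array 3 lay below all others, so that the adult minus fetal difference of -0.25 (limma adjusted p = 0.612) was -0.07 without it. The further HSPA8 probe sets gave adult minus fetal differences of -0.14, with overlap, and -0.34 (limma adjusted p = 0.445). The latter read 10.80, 10.46 and 10.62 in adult arrays, all below the fetal arrays at 10.82 to 11.15. The heat-inducible HSPA1A and HSPA1B, read together, stood at 8.05, 8.03, 8.06 and 8.14 in fetal, 8.32, 8.06, 8.28 and 8.28 in infant, and 7.55, 7.83 and 8.34 in adult arrays. Adult arrays 1 and 2 held the lowest values of the 11 and adult array 3 the highest. The adult minus infant difference was -0.33 (limma adjusted p = 0.784) with all arrays, -0.55 (limma adjusted p = 0.116) without adult array 3 and 0.11 with adult array 3 as the lone adult array. The other, dimmer probe sets of HSPA1A and HSPA1B gave adult minus infant differences of -0.006 and -0.063. HSPA2 and HSPA6, a testis-rich and a strictly heat-inducible HSP70, were dim, at 7.30 to 7.64 and 7.21 to 7.67 over all arrays. HSPA6 was lower in every adult than in every fetal array, by -0.11 on average (limma adjusted p = 0.827). A second HSPA6 probe set gave an adult minus fetal difference of 0.03, with overlap.

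The small heat shock proteins hold unfolded proteins in solution. CRYAB, the alpha B crystallin, had the widest spread of the members, with 7.30, 8.46, 8.72 and 9.003 in fetal, 7.84, 8.39, 8.33 and 8.66 in infant, and 8.32, 7.93 and 10.38 in adult arrays. Adult array 3 stood far above the next highest array, and fetal array 1 was the lowest. Between adult and fetal arrays the difference was 0.51 ± 0.48 (SE; limma adjusted p = 0.820) with all arrays and -0.24 without adult array 3. HSPB1, the HSP27 protein, lay between 10.87 and 11.68 with an adult minus fetal difference of -0.03.

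The J-domain proteins hand clients to HSP70. DNAJB1, the main heat-inducible one, averaged 7.60 ± 0.19 (SD, n = 3) in adult and 7.73 ± 0.14 (SD, n = 4) in fetal arrays, and a second probe set differed by 0.15 in the opposite direction. DNAJB6, which keeps aggregation-prone proteins apart, read 7.49, 7.26 and 7.39 in adult arrays against 7.19, 7.19, 7.26 and 6.97 in fetal arrays. This was the member probe set that was higher in every adult than in every fetal array, by 0.23 (limma adjusted p = 0.660), although adult array 2 and fetal array 3 were nearly equal. The 2 further probe sets that include DNAJB6 in their names differed by -0.03 and 0.03. DNAJA1 and BAG3, an HSP70 exchange factor of selective autophagy, each differed by -0.11.

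The mitochondrial chaperones fold proteins imported into the organelle, HSPA9 as its HSP70 and HSPD1 and HSPE1 as the chaperonin barrel and its lid. HSPD1 read 11.15, 11.34, 11.12 and 11.33 in fetal, 10.63, 10.84, 10.96 and 11.02 in infant, and 11.02, 11.05 and 10.33 in adult arrays. All fetal arrays lay above all infant and adult arrays. HSPD1 differed between adult and fetal arrays by -0.43 ± 0.16 (SE; limma adjusted p = 0.414), and by -0.20 without adult array 3. The infant minus fetal difference of -0.37 ± 0.15 (SE; limma adjusted p = 0.666) has no value of that array in its means, but its error and p come from the fit over all 11 arrays, and the adjusted p was 0.372 (limma) without adult array 3. A second HSPD1 probe set did not separate the groups: it read 10.88 to 10.93 in fetal, 10.54 to 11.23 in infant, and 11.18, 11.03 and 9.49 in adult arrays.

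HSPE1 read 9.95, 10.00, 9.94 and 9.45 in fetal, 9.55, 9.61, 9.52 and 9.03 in infant, and 9.55, 9.33 and 8.89 in adult arrays. Fetal arrays 1 to 3 lay above all others, fetal array 4 stood among the infants, and adult array 3 was the lowest. HSPE1 differed between adult and fetal arrays by -0.58 ± 0.18 (SE; limma adjusted p = 0.306), and -0.39 without adult array 3. HSPA9 averaged 9.34 ± 0.34 (SD, n = 3) in adult and 9.54 ± 0.15 (SD, n = 4) in fetal arrays, a difference of -0.20 that was -0.05 without adult array 3. The further HSPA9 probe sets gave adult minus fetal differences of 0.10 and -0.04. Without adult array 3 the median adult minus fetal difference of the mitochondrial genes was -0.20, and with adult array 3 as the lone adult array it was -0.90.

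HSPD1 and HSPE1 are next to each other in the rhesus gene table used. Across the 11 arrays their levels correlated at r = 0.60 (permutation p = 0.0619, adjusted p = 0.155 over the 5 pairs examined) and rho = 0.48 (permutation p = 0.132, adjusted p = 0.331). Without infant array 1 and adult array 3, the arrays farthest from the HSPD1 median, r was 0.37. Within the age groups r was 0.23.

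Adult array 3 was the lowest of the 11 arrays for 10 of the 36 member probe sets and the highest for 4, where 10.4% and 12.2% of all probe sets had it lowest and highest. Among bright probe sets these shares were 18.7% and 13.1%. The 10 were HSPA4, HSPA8, HSP90AA1, HSP90AB1, HSPA9, HSPD1, HSPE1, HSP90B1, PDIA3 and ATF4. Other probe sets of these genes, among them the brightest of HSP90B1, did not all have adult array 3 lowest. The 4 highest were CRYAB (10.38), HSPA1A with HSPA1B (8.34), DDIT3 (8.79) and ASNS (10.16). Adult array 3 also had the most positive value on the first component, and the part of this, and of its XIST and RPS4Y1 readings, in the member values was not tested.

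**Figure D2:**
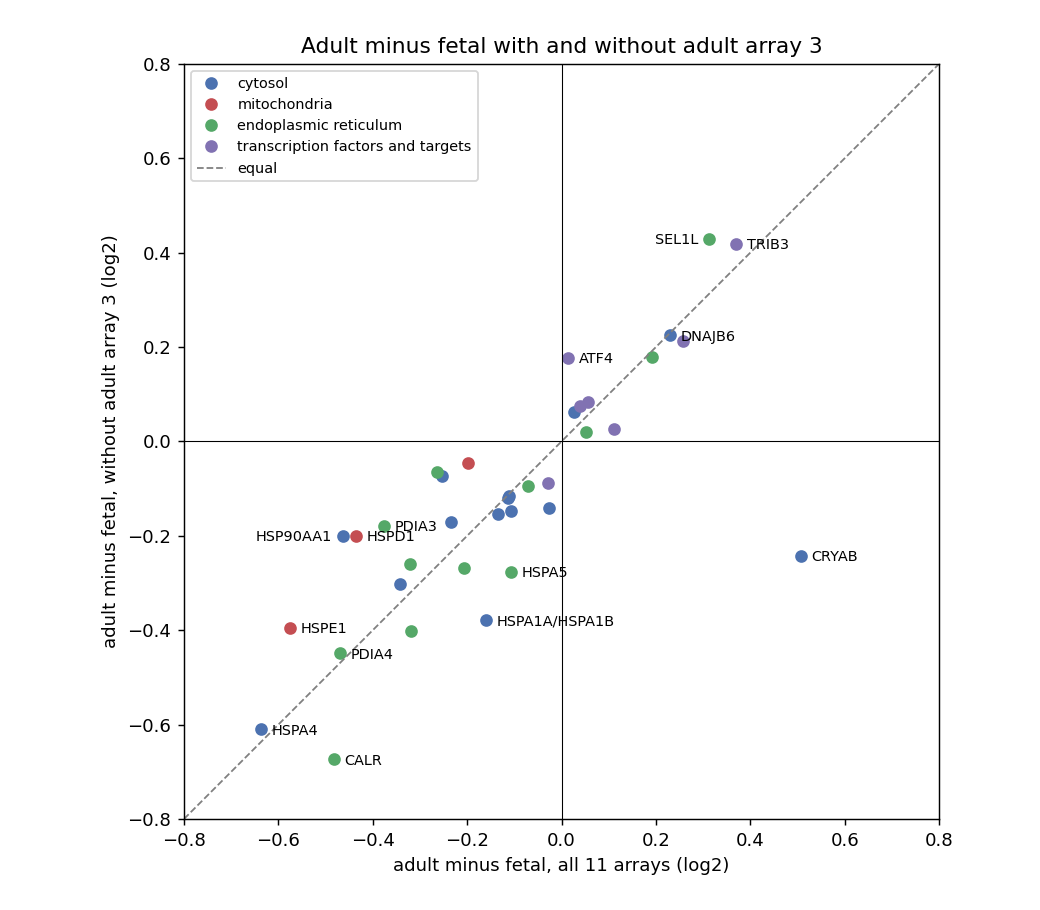
Adult minus fetal difference of the members with all 11 arrays (horizontal axis) and without adult array 3 (vertical axis), both in log2 units, with colours for the compartment and a dashed line for equal values. CRYAB is at 0.51 with all arrays and at -0.24 without adult array 3, HSPD1 at -0.43 and -0.20, and HSPA4 and PDIA4 lie near the line.

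In the endoplasmic reticulum, 21 of 28 probe sets were lower in adult than in fetal arrays, 11 of them at an unadjusted p under 0.05 (limma) and 5 with no overlap between the groups. Among all bright probe sets those shares were 61.7%, 12.8% and 7.84%. Calreticulin and calnexin are the lectin chaperones that hold newly made glycoproteins. CALR read 11.76, 11.85, 11.68 and 11.67 in fetal, 10.81, 11.04, 11.41 and 11.80 in infant, and 11.03, 11.10 and 11.64 in adult arrays. The fetal arrays were close together, while infant array 4 reached the fetal range and adult array 3 came just below it. Adult arrays differed from fetal arrays by -0.48 ± 0.20 (SE; limma adjusted p = 0.487), and -0.67 without adult array 3. Both other CALR probe sets were lower too, by -0.44 (limma adjusted p = 0.274) and -0.71 (limma adjusted p = 0.402).

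CANX, calnexin, read 12.21, 11.96, 11.79 and 11.82 in fetal, 11.14, 11.51, 11.77 and 12.03 in infant, and 11.59, 11.50 and 11.79 in adult arrays. The order of the infant arrays was that seen for CALR, with array 1 lowest and array 4 highest. Its adult minus fetal difference was -0.32 (limma adjusted p = 0.646), with -0.42 and -0.18 in the 2 further CANX probe sets.

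Disulfide isomerases form and correct the disulfide bonds of secreted proteins. PDIA4 read 9.28, 9.30, 9.16 and 9.04 in fetal, 8.76, 9.03, 9.05 and 9.06 in infant, and 8.46, 9.03 and 8.68 in adult arrays. All adult arrays lay below all fetal arrays, with adult array 2 close to fetal array 4, and the infant arrays overlapped both groups. For PDIA4 adult minus fetal was -0.47 ± 0.13 (SE; limma adjusted p = 0.246), -0.45 without adult array 3, and the adult minus infant difference was -0.25 (limma adjusted p = 0.819). A second PDIA4 probe set was lower by -0.34 (limma adjusted p = 0.504).

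The 4 PDIA6 probe sets were all lower in adult than in fetal arrays, by -0.32 to -0.41, each with an unadjusted p under 0.05 and an adjusted p of at least 0.290 (limma). In 2 of them no adult array reached the fetal range. PDIA3, the isomerase that works with calreticulin and calnexin, read 11.27, 11.38 and 10.73 in adult arrays and 11.52, 11.76, 11.38 and 11.35 in fetal arrays. Its difference of -0.38 (limma adjusted p = 0.521) was -0.18 without adult array 3, the lowest array. P4HB, a disulfide isomerase that is also a subunit of the collagen prolyl 4-hydroxylase, averaged 9.80 ± 0.11 (SD, n = 3) in adult and 10.01 ± 0.08 (SD, n = 4) in fetal arrays (limma adjusted p = 0.699).

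HSPA5, also known as BiP, is the HSP70 of the endoplasmic reticulum and a common readout of the unfolded protein response. HSPA5 read 11.13, 11.31, 10.94 and 11.36 in fetal, 10.41, 10.83, 10.91 and 11.81 in infant, and 10.84, 10.98 and 11.41 in adult arrays. The infant arrays held both the lowest and the highest value of the 11, and adult and fetal ranges overlapped (difference -0.11, limma adjusted p = 0.948). Infant array 4 was the highest of the 11 also for HERPUD1, SEL1L and P4HB. HSP90B1, the HSP90 of the compartment also called GRP94, differed by -0.26 between adult and fetal arrays (limma adjusted p = 0.745). The 3 further HSP90B1 probe sets gave -0.23, -0.30 and 0.26. For the HSP90B1 probe set used, HSPA5 and HSP90B1 levels were nearly unrelated across the 11 arrays (r = 0.02, permutation p = 0.967; rho = 0.08, permutation p = 0.819; -0.091 for r without infant arrays 1 and 4). That probe set averaged 8.51, while brighter HSP90B1 probe sets that also name MIR3652 averaged 9.59 and 11.65. The correlation of HSPA5 with the brighter ones was not computed.

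**Figure D3:**
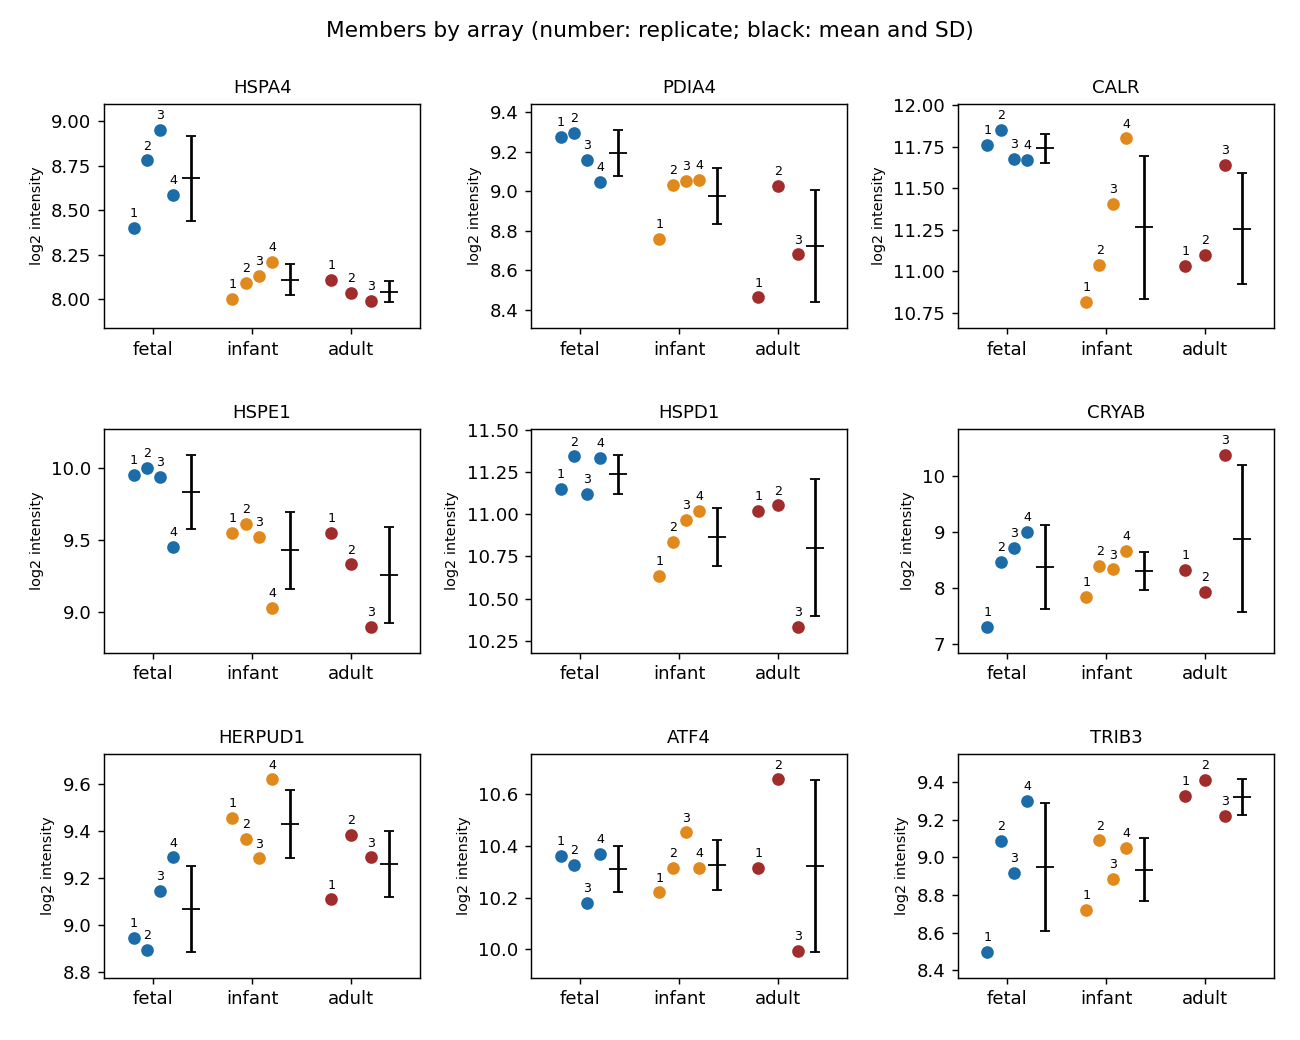
Log2 intensity of 9 members in every array by age group, with points numbered by replicate, and the mean and SD in black. HSPA4 and HSPD1 are higher in all fetal arrays than in any infant or adult array, CALR has a tight fetal group and widely spread infant and adult groups, and CRYAB is high in adult array 3 alone.

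HERPUD1 and SEL1L, factors of endoplasmic reticulum-associated degradation, averaged higher in adult than in fetal cultures, and 16 further degradation factors split into 8 higher and 8 lower (median difference 0.01). HERPUD1, which helps to pull misfolded proteins out of the endoplasmic reticulum and is induced by the unfolded protein response, read 8.95, 8.89, 9.14 and 9.29 in fetal, 9.46, 9.37, 9.28 and 9.62 in infant, and 9.11, 9.38 and 9.29 in adult arrays. The infant group was the highest, with infant array 3 just below fetal array 4, and the infant minus fetal difference was 0.36 ± 0.11 (SE; limma adjusted p = 0.559). The adult minus fetal difference was 0.19 (limma adjusted p = 0.706). SEL1L, the scaffold of the HRD1 ubiquitin ligase, read 9.85, 9.59 and 9.37 in adult and 9.03, 9.19, 9.36 and 9.58 in fetal arrays, a difference of 0.31 (limma adjusted p = 0.698) with overlap.

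The J-domain proteins of the endoplasmic reticulum were dim. DNAJC3, which also restrains the kinase PERK, read 7.60, 7.46, 7.35 and 7.35 in fetal, 7.15, 7.33, 7.26 and 7.28 in infant, and 7.45, 7.47 and 7.56 in adult arrays. The infant arrays were the lowest, below every fetal and every adult array. The adult minus infant difference was 0.24 ± 0.10 (SE; limma adjusted p = 0.751) and the infant minus fetal difference -0.19 (limma adjusted p = 0.725). DNAJB9 had group means of 7.30 (fetal), 7.27 (infant) and 7.23 (adult).

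The transcription factors barely differed between adult and fetal cultures. HSF1 differed by 0.06, ATF6, the membrane-bound sensor that is cut to a transcription factor, by 0.04, and ATF4, the effector of the integrated stress response, by 0.01. HSF1, XBP1 and ATF6 were dim (group means of 7.25 to 7.56), and the activity of these factors depends on splicing, cleavage or translation that their total transcript level does not show. XBP1 read 7.03 in infant array 1 and 7.14 to 7.56 in all others, with an adult minus infant difference of 0.15 (limma adjusted p = 0.881). ATF4 lay between 10.18 and 10.45 in fetal and infant arrays, while the 3 adult arrays spread over 10.32, 10.66 and 9.99 and included both the highest and the lowest value.

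TRIB3, ASNS and DDIT3, all targets of ATF4, averaged higher in adult than in fetal cultures without passing the test, while 27 further ATF4 targets split into 14 higher and 13 lower (median difference 0.02). TRIB3, a pseudokinase induced by ATF4 and DDIT3, read 8.50, 9.09, 8.92 and 9.30 in fetal, 8.72, 9.09, 8.88 and 9.05 in infant, and 9.33, 9.41 and 9.22 in adult arrays. All adult arrays lay above all infant arrays, and fetal array 4 fell inside the adult range. The adult minus fetal difference was 0.37 ± 0.16 (SE; limma adjusted p = 0.511) and the adult minus infant difference 0.38 ± 0.16 (SE; limma adjusted p = 0.767).

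ASNS, asparagine synthetase, read 9.36, 10.10, 9.91 and 9.92 in fetal, 9.87, 10.06, 9.80 and 9.46 in infant, and 10.08, 9.99 and 10.16 in adult arrays. Adult arrays were the closest together, and adult array 3 was the highest of the 11. The adult minus infant difference was 0.28 (limma adjusted p = 0.839) and the adult minus fetal difference 0.26 (limma adjusted p = 0.713). ASNS and TRIB3 levels correlated across the 11 arrays at r = 0.66 (permutation p = 0.0413, adjusted p = 0.155) and rho = 0.70 (permutation p = 0.0197, adjusted p = 0.0986), and r was 0.58 without fetal array 1 and infant array 4. DDIT3, the CHOP transcription factor of prolonged stress, averaged 8.62 ± 0.15 (SD, n = 3) in adult and 8.51 ± 0.06 (SD, n = 4) in fetal arrays, with adult array 3 the highest. The remaining pairs, HSPA1A with DNAJB1 (r = 0.11, permutation p = 0.703) and HSP90AA1 with HSPH1 (r = 0.25, permutation p = 0.470), showed no relation that passed adjustment either.

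**Figure D4:**
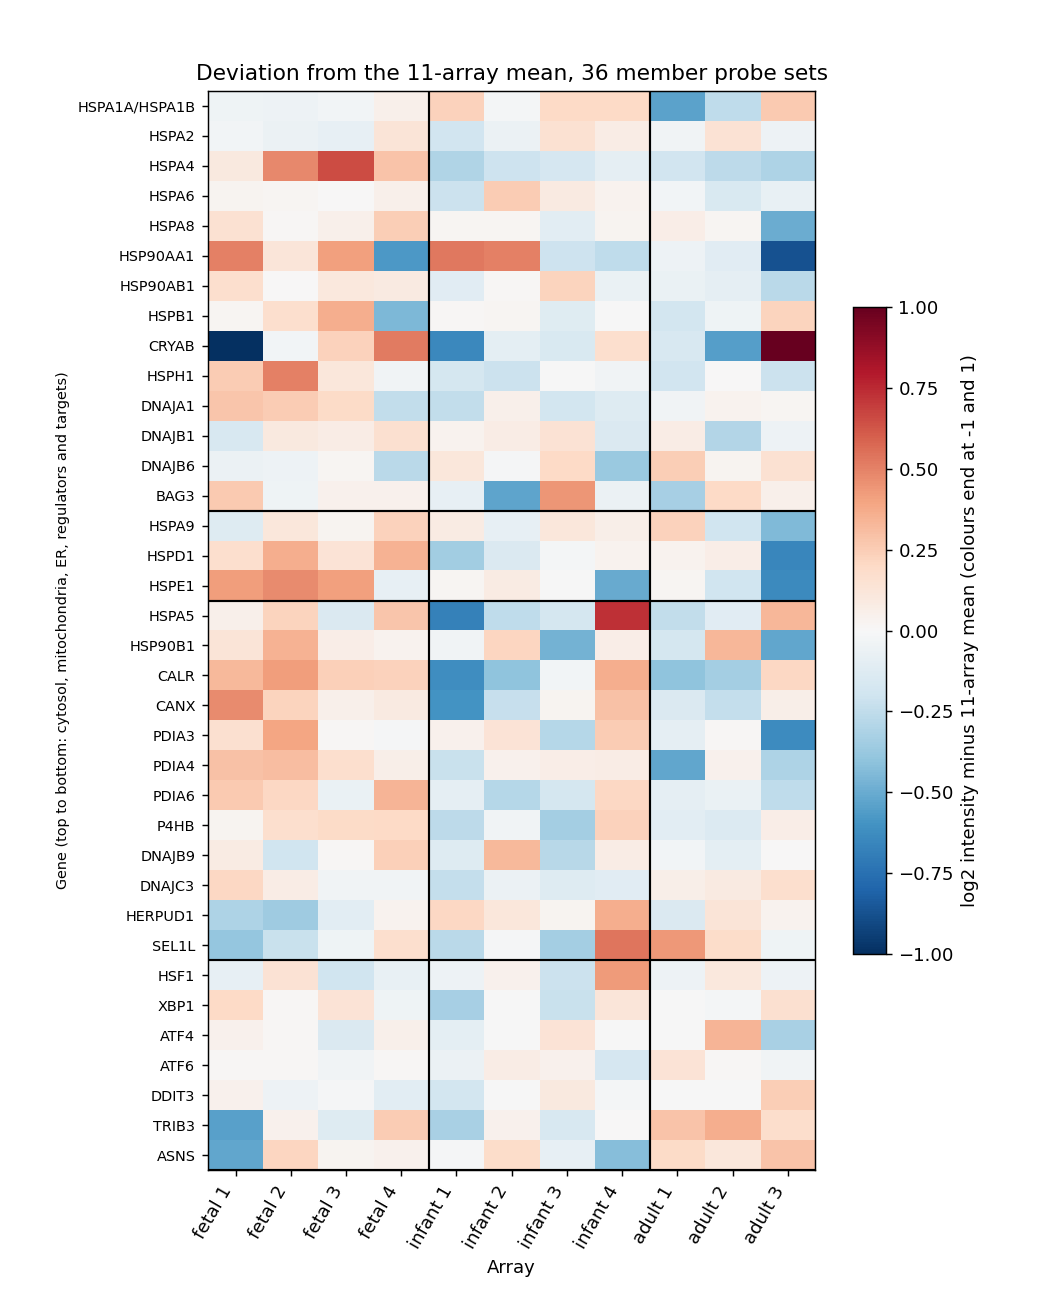
Log2 intensity of the 36 member probe sets in each array as the deviation from the probe set's mean over 11 arrays, blue for lower and red for higher, with black lines between age groups and compartments. The fetal columns are mostly red among the mitochondrial genes and the endoplasmic reticulum chaperones, and adult array 3 is blue in all 3 mitochondrial rows. Infant arrays 1 and 4 have opposite colours in the endoplasmic reticulum rows except PDIA3, HERPUD1 and DNAJC3.

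Between adult and infant cultures the member genes were split nearly evenly, while their probe sets leaned lower in adult cultures. Of 36 genes 16 were higher and 20 lower in adult cultures, with a median difference of -0.02, where 54.7% of all genes were higher. Of the 74 member probe sets 29 were higher and 45 lower, where 53.9% of all probe sets were higher. Among the bright probe sets 50.2% were lower, and of the 45 bright members 30 were. At an unadjusted p under 0.05 (limma) 2 of 74 member probe sets were higher, DNAJC3 and TRIB3, and 1 was lower, HSPA1A with HSPA1B, where 3.79% and 2.39% of all probe sets were. The ranges did not overlap for 2 that were higher in adult arrays, DNAJC3 and TRIB3, and for 0 that were lower, against 3.18% and 1.8% of all probe sets. The shares at that threshold and without overlap were close to the background. Same-numbered adult and infant arrays deviated together, but 2 of the 3 adult arrays correlated more with another infant array, and the titles do not say that their numbers mark pairs. With these numbers as a block 9 probe sets were called in place of 4, with 0 members among them in either case.

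The comparison of infant with fetal cultures shares the 4 fetal arrays with that of adult cultures. Of 36 genes 26 were lower and 10 higher in infant cultures, with a median difference of -0.07, where 45.4% of all genes were higher. At an unadjusted p under 0.05 (limma) 10 of 74 member probe sets were lower and 1, HERPUD1, was higher, where 4.55% and 2.33% of all probe sets were. With only the newborn arrays as the fetal group 2 were lower at that threshold, where 2.25% of all probe sets were. Among the bright probe sets 63.5% were lower in infant arrays and 11.1% were lower at that threshold, and of the 45 bright members 36 and 10 were. The ranges did not overlap for 6 that were lower in infant arrays and 0 that were higher, against 2.13% and 1.21% of all probe sets. The median differences were -0.20 for the endoplasmic reticulum genes, -0.37 for the mitochondrial genes, -0.06 for the cytosolic genes and -0.02 for the transcription factors and targets.

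The arrays within a group were far from uniform for the endoplasmic reticulum genes. The median deviation of these 12 genes from their means was 0.15, 0.21, 0.01 and 0.13 in fetal arrays 1 to 4, -0.23, -0.02, -0.17 and 0.24 in infant arrays 1 to 4, and -0.12, -0.02 and 0.02 in adult arrays 1 to 3. Infant array 4 lay above all fetal arrays, and infant array 1 was the lowest of the 11. Infant arrays 3 and 4 lay on the same side of the first principal component, and infant array 1 on the other. Without the 4 arrays on the negative side of that component, 20 of 74 member probe sets were lower in the lone adult array left than in the fetal arrays at an unadjusted p under 0.05 (limma), with that array assumed to vary like the others, and 6.48% of all probe sets were. In that fit adult array 3 differed from the fetal arrays by -0.90 and -1.42 in the HSPD1 probe sets and by -1.42 in the dimmer HSP90AB1 probe set. Adult array 3 was the lowest of all arrays for each of these.

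Newborn and gestation day 120 cultures, with 2 arrays each, did not differ by the test in any member. CRYAB was 0.98 higher in newborn arrays, HERPUD1 0.30 higher and TRIB3 0.31 higher, while HSPH1 differed by -0.34, DNAJA1 by -0.29 and DNAJC3 by -0.17 (limma adjusted p = 1.00 for each). At an unadjusted p under 0.05 there were 2 of 74 member probe sets, for HSPH1 and HSP90B1, and 402 of all 22215 (limma).

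Other protein folding genes were counted on lists of 178 genes, of which 157 were measured and 0 were called in any of the 3 age comparisons. Between adult and fetal cultures 69 were higher and 88 lower (median difference -0.02), with 10 higher and 17 lower at an unadjusted p under 0.05 (limma), where 4.13% and 5.79% of all 11963 genes were. Between infant and fetal cultures 58 were higher and 99 lower (median -0.07). The subunits of the cytosolic chaperonin TRiC and of prefoldin, which fold actin and tubulin, were lower in adult cultures for 12 of 15 genes (median -0.14), and 23 of 34 further endoplasmic reticulum chaperones and isomerases were lower (median -0.11). Of the further cytosolic chaperones and co-chaperones 16 were higher and 19 lower (median -0.01), of the mitochondrial chaperones and proteases 4 and 5 (median -0.13), and of the stress sensors and transcription factors 13 and 9 (median 0.03).

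The gene of these lists nearest the threshold was VCP, the ATPase that extracts ubiquitinated proteins from membranes. VCP averaged 9.98 ± 0.14 (SD, n = 3) in adult and 10.61 ± 0.19 (SD, n = 4) in fetal arrays, with infant arrays between (10.31 ± 0.15), an adult minus fetal difference of -0.63 (limma adjusted p = 0.0697) with no overlap. SERPINH1, the collagen-specific chaperone HSP47, averaged 12.67 ± 0.17 (SD, n = 3) in adult and 13.10 ± 0.11 (SD, n = 4) in fetal arrays, without overlap (difference -0.43, limma adjusted p = 0.271). The secreted chaperone-like factor MANF differed by -0.49 (limma adjusted p = 0.349), and BAG6, which guards tail-anchored proteins, by -0.47 (limma adjusted p = 0.179).

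A few genes of these lists were higher in adult cultures. NUPR1, a stress-induced nuclear protein listed as an ATF4 target, averaged 10.52 ± 0.26 (SD, n = 3) in adult and 9.80 ± 0.35 (SD, n = 4) in fetal arrays without overlap (difference 0.72, limma adjusted p = 0.259). GARS1, a glycyl-tRNA synthetase, differed by 0.36 (limma adjusted p = 0.349) and EDEM3, a mannosidase of the degradation pathway, by 0.46 (limma adjusted p = 0.274). LONP1, the main protease of the mitochondrial matrix, was lower in every infant than in every fetal array, by -0.48 (limma adjusted p = 0.306). DERL1, a degradation channel protein, was 0.55 higher in adult than in infant arrays, without overlap (limma adjusted p = 0.477).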

How the data were processed

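Total RNA of 11 cultures was hybridised to 1 array each. The deposited values were intensity per probe set on a linear scale, and the authors made them with RMA, as the submitters' processing notes state without naming a release. RMA evens out overall brightness between arrays. Probe-level signals were not analysed here. All 22215 probe sets entered the tests after log2 was taken. Genes were named from the platform annotation, in which 19065 probe sets had 1 symbol, 1043 several and 2107 none. Each gene was represented by its brightest probe set with 1 symbol, or by one with several symbols where it had no other.

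With limma 3.58.1 (R 4.3.3), age group means were fitted over all arrays (lmFit and eBayes, two-sided), with Benjamini-Hochberg adjustment over all probe sets, and a second fit by stage set newborn against gestation day 120 arrays. The fits were tested on simulated data. Correlations used 100000 permutations in SciPy 1.17.1. The members and lists were chosen with earlier results of these data known. Named in each age comparison were the 4 members of smallest p in each direction (3 for newborn arrays), the defining genes of each compartment and the 2 genes of smallest p of each further list; the rest are given to account for all members.

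Same-numbered adult and infant arrays deviated together (r of 0.145, 0.131 and 0.204), although adult array 1 correlated more with infant array 2 (0.258) and adult array 3 with infant array 4 (0.299), and those of the comparisons with fetal arrays did not in every pair (-0.096 to 0.275). The numbers come from the titles, which do not say that they mark pairs. The main fits had no block. Of the members 36 were found in the reference gene table, which was used for neighbouring genes. Promoter and protein sequences were not analysed here. The number of columns of per-sample values left unused was 0.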

Additional observations from a re-analysis of the deposited data

Results flagged for a closer look

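In groups of 4 arrays, 13 of 148 tests over the 74 member probe sets found an array whose gap to its nearest neighbour filled most of the group's range (ratio above Dixon's critical value for 4 arrays); chance gives about 1 in 20. That was 8.78% of the tests, against 9.84% over all 22215 probe sets, so the share was no higher among the members, and 3 of the 13 came from tied values. The adult group of 3 was not tested. HSPE1 was lowest in fetal array 4 (ratio 0.883, 9.45 against at least 9.94) and in infant array 4 (0.851, 9.03 against at least 9.52), and DNAJA1 was lowest in fetal array 4 (0.842). PDIA4 was lowest in infant array 1 (0.913). HSPA1A with HSPA1B was lowest in infant array 2 for the brightest probe set (0.866) and in fetal array 1 for a dimmer one (0.873). HSPA8 was lowest in infant array 3 (0.949), and another of its probe sets was highest in fetal array 4 (0.884). Dimmer probe sets stood out for HSPA6 in infant array 3, the highest (0.882), and for DNAJB9 in fetal array 3, the lowest (0.929).

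The ratio was 1 for a dim HSPA4 probe set in infant array 2, a dim HSP90AA1 probe set in fetal array 2, and ATF6 in fetal array 3. In each of these the other 3 arrays held the same value, so the ratio measures no spread between them, and for ATF6 the gap was 0.05.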

How the results depend on the processing

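Few arrays and the human probe design limit these data: a shift in a dim probe set such as HSPA6, HSF1 or ATF6 could go unseen, and 1 array decided several adult values. With adult minus fetal, 29 probe sets were called in all, and 47 with the prior variance following intensity, 120 with array weights, 16 with only the 2 groups compared, 2 with the newborn arrays alone as fetal, and 4 to 153 leaving out 1 array. The numbers of the replicate block are not known to mark pairs, and same-numbered arrays did not deviate together in every pair there. The replicate block gave 221, with HSPE1 (-0.71, limma adjusted p = 0.0260) and HSPA4 (-0.64, limma adjusted p = 0.0429) called. Members called were thus 2 with the block, 1 with array weights and 0 to 1 leaving out 1 array. With adult minus infant, 4 became 10 with weights, 9 with the replicate block, 2 with only the 2 groups and 0 to 55 leaving out 1 array. With infant minus fetal, 0 became 1 without dim probe sets, with 1 probe set per gene and with weights, 2 with the replicate block and 0 to 21 leaving out 1 array. The F test's 8 became 26 with the prior variance by intensity, 63 with weights (1 member, HSPA4), 101 with the replicate block and 2 to 95 leaving out 1 array; newborn minus gestation day 120 gave 0 to 2. Apart from adult minus fetal, the replicate block called 0 members.

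Chosen after seeing the data, leaving out adult arrays 1 and 2 gave 44 called for adult minus fetal, 44 for adult minus infant and 28 for the F test, each with 1 member, HSPD1, and leaving out the 4 arrays on the negative side of the first component gave 65 (3 members) and 10 (0 members) for the comparisons with adults. HSPA1A with HSPA1B then turned to 0.11 and 0.062 for adult minus infant. Leaving out 1 array, HSF1 ran from -0.020 to 0.19 and DNAJB6 from -0.0026 to 0.19 for infant minus fetal. The HSPA5 and HSP90B1 correlation was -0.091 without infant arrays 1 and 4 and -0.062 within groups, and that of HSPA1A and DNAJB1 was -0.095 within groups. The cause of these changes was not tested. The other members named for a smallest p kept the sign of that difference under the alternatives run. CRYAB, named by that rule only for newborn arrays, changed sign for adult minus fetal without adult array 3.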
